A study of Mus musculus with 35 samples.

Results

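The genes described here are 10 components of the mammalian circadian clock, *Arntl*, *Clock*, *Per1*, *Per2*, *Per3*, *Cry1*, *Cry2*, *Nr1d1*, *Nr1d2* and *Dbp*, out of 55355 genes and loci counted in RNA-seq libraries of adult mouse tissues. They were chosen by symbol, not by their values, and each symbol was followed to its row of the count table through the deposited map between ENSEMBL genes and loci assembled from PacBio long reads (Iso-seq). Of the 10, 8 were counted under an Iso-seq locus, and *Clock* and *Per3* were counted under their ENSEMBL genes. All 10 passed the filter on low counts.

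The clock is a transcriptional loop that runs in most cells of the body. ARNTL (also called BMAL1) and CLOCK form a dimer that binds E-box elements and switches on the Per and Cry genes, whose proteins enter the nucleus and hold the same dimer back. The dimer also drives *Nr1d1* and *Nr1d2*, nuclear receptors that repress *Arntl*, and *Dbp*, a transcription factor that passes the rhythm on to genes with D-box elements. In rhythmic tissues the *Arntl* transcript therefore peaks at a different time of day from the Per, Nr1d and *Dbp* transcripts, so that the level of a clock gene in any sample depends on when the tissue was taken as well as on which tissue it is.

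The study sequenced RNA of C57BL/6J mice, the standard inbred laboratory strain, to describe pseudogene transcription. There were 10 groups of adult animals: brain, cerebellum, heart and colon of females and of males, the female gonad (ovary) and the male gonad (testis). Male heart was sequenced in 2 libraries and every remaining group in 3, giving 29 in all, and no group received a treatment. The RNA was depleted of ribosomal RNA and made into strand-specific libraries. The labels do not give the hour of collection, and they do not say whether libraries of different tissues came from the same animal. P-values therefore measure the spread between these libraries only. Ovary exists only in females and testis only in males, so for the gonads tissue and sex cannot be told apart.

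Total counts ranged from 11742417 to 36194255 per library, with a median of 24403774, and the 10 genes had between 134 and 6824 counts in any library. Of 18 marker genes of the 6 tissues, 16 separated their tissue from all other libraries without overlap, and the exceptions were *Snap25*, which is shared by brain and cerebellum, and the locus of *Gdf9*, which was higher in heart than in ovary. Female heart replicate 3 stood apart from the other heart libraries. Mitochondrially encoded genes took 7.38% of its counts against 9.68 to 13.6%, its summed cardiac markers *Myh6*, *Tnnt2* and *Actc1* were at 7150 FPKM against 14400 to 16900, and its TMM factor was 1.12 against 0.604 to 0.711. The immediate early genes *Fos*, *Egr1*, *Junb*, *Arc* and *Nr4a1* summed to 49.5 FPKM in it against 7.03 to 13.9. The smooth muscle list (*Myh11*, *Acta2*, *Des*) summed to 659 FPKM against 1160 to 1460, a sum made up mostly of *Des*, which cardiac muscle also expresses. The part of this library in the heart values was examined only by leaving it out.

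Levels are counts scaled to merged exon length and to the library's total count, written FPKM. They compare genes per length, but the length is that of the deposited annotation, which was 2950 bases for *Arntl* and 1640 bases for *Dbp* against 7523 and 2993 in GENCODE, so that levels of different genes are approximate. Differences between groups are log2 differences from edgeR's quasi-likelihood test with TMM scaling, fitted across 29910 genes and loci, with Benjamini-Hochberg adjustment over all of them. In whole tissue, fewer cells of a type and less RNA per cell cannot be told apart.

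*Arntl* (ENSMUSG00000055116, chr7:113207457-113314124, plus strand, GRCm38) encodes the indispensable partner of the activating dimer. In brain its 6 libraries ran from 12.9 to 17.7 FPKM with a median of 16.2, in cerebellum from 12.3 to 17.2 with a median of 14.8, and in colon from 8.94 to 19.6 with a median of 13.6. The heart libraries (females 1 to 3, then males 1 and 2, here and for the other genes) were at 2.98, 6.91, 5.11, 4.05 and 8.10 FPKM, and those of ovary at 3.72, 5.68 and 6.80. In testis the libraries were at 3.06, 2.76 and 3.23 FPKM. The 3 tissues with high levels overlapped one another and did not overlap heart, ovary or testis. *Arntl* ranged more widely in colon and heart, where the highest library was more than double the lowest, than in testis.

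*Clock* (ENSMUSG00000029238, chr5:76209868-76304792, minus strand), the partner of ARNTL in the dimer, was the flatter of the pair. Its medians were 8.60 FPKM in colon, 7.07 in brain and 6.71 in cerebellum, and its ranges in those tissues were 7.08 to 14.4, 5.93 to 8.53 and 5.89 to 10.6. In heart *Clock* was at 2.69, 3.36, 7.18, 2.92 and 3.62 FPKM, and the highest of these was female heart replicate 3. Ovary had 11.8, 5.65 and 7.20 FPKM and testis 4.36, 4.14 and 3.36, and only testis lay below every brain, cerebellum, colon and ovary library. The ratio of *Arntl* to *Clock* was 2.27 ± 0.305 in brain (SD, n = 6) and 0.776 ± 0.160 in testis (SD, n = 3), without overlap.

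The Period genes encode the rhythmically produced part of the repressor complex. *Per1* (ENSMUSG00000020893, chr11:69095281-69109963, plus strand) ran from 10.2 to 15.1 FPKM in brain with a median of 12.1, from 7.45 to 9.86 in cerebellum with a median of 8.63, and from 3.04 to 7.45 in colon with a median of 5.61. Heart was at 8.34, 3.98, 7.81, 7.54 and 6.13 FPKM, ovary at 6.51, 6.76 and 5.64, and testis at 11.0, 12.8 and 10.9. *Per1* in testis was thus within the range of brain and above every cerebellum, heart, colon and ovary library, which held for no other Period gene.

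*Per2* (ENSMUSG00000055866, chr1:91415984-91459318, minus strand) was at 3.46 to 5.30 FPKM in brain and 3.85 to 5.24 in cerebellum, with medians of 4.69 and 4.11, and at 1.96 to 4.13 in colon with a median of 2.94. In testis it was at 2.08, 2.02 and 2.09 FPKM, in ovary at 4.60, 3.91 and 3.19, and in heart at 2.15, 2.01, 3.10, 2.69 and 1.40. *Per3* (ENSMUSG00000028957, chr4:151003652-151044665, minus strand) was lowest in testis, at 1.34, 1.34 and 1.53 FPKM. It reached 3.68 to 5.22 FPKM in cerebellum, 5.33, 3.62 and 3.59 in ovary, and 2.77 to 3.82 in brain. Colon had 1.51 to 3.45 FPKM, and heart 1.75, 1.81, 4.35, 2.26 and 1.45, where the highest was again female replicate 3. The mixture of Period transcripts therefore differed between tissues: *Per1* exceeded *Per2* by 5.61 ± 0.626 times in testis (SD, n = 3, range 5.20 to 6.33), against 1.42 to 4.38 times in all other libraries, and *Per1* exceeded *Per3* by 8.27 ± 1.20 times in testis, against at most 4.77 times elsewhere.

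*Cry1* (ENSMUSG00000020038, chr10:85131702-85185033, minus strand) and *Cry2* (ENSMUSG00000068742, chr2:92403650-92434036, minus strand) encode the cryptochromes, the more potent part of the repressor complex. *Cry1* ran from 13.1 to 17.8 FPKM in cerebellum with a median of 15.1, from 8.59 to 17.2 in colon with a median of 10.2, and from 8.11 to 10.5 in brain with a median of 9.34. It was at 14.2, 13.7 and 12.1 FPKM in testis, at 8.58, 8.03 and 5.97 in ovary, and at only 2.22, 2.43, 2.87, 3.53 and 2.73 in heart. Every heart library was below every library of the other tissues. *Cry2* had a different distribution, with 26.2 to 31.6 FPKM in brain, 20.3 to 24.8 in cerebellum, and 5.73 to 11.6 across all libraries of heart, colon, ovary and testis. The ranges of brain, cerebellum and the remaining tissues did not overlap. The mean ratio of *Cry1* to *Cry2* was lowest in brain, at 0.320 ± 0.0262 (SD, n = 6), and highest in testis, at 2.03 ± 0.182 (SD, n = 3), although single colon libraries reached 2.43.

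*Nr1d1* (ENSMUSG00000020889, chr11:98767688-98775412, minus strand) and *Nr1d2* (ENSMUSG00000021775, chr14:18204053-18239295, minus strand) encode REV-ERBα and REV-ERBβ, heme-binding repressors of *Arntl*. *Nr1d1* ran from 55.0 to 70.3 FPKM in brain, from 32.9 to 63.1 in cerebellum and from 26.5 to 71.3 in colon, with medians of 65.9, 50.8 and 46.1. The heart libraries were at 35.3, 55.5, 79.8, 44.1 and 50.1 FPKM, ovary at 28.8, 35.0 and 36.0, and testis at 7.87, 7.60 and 10. Testis was below every other library by a wide margin. *Nr1d2* was also lowest in testis, at 7.17, 5.69 and 7.18 FPKM, and was at 13.5 to 35.9 FPKM in the other 26 libraries, where tissues overlapped. Of the exon bases counted for *Nr1d1*, 732 (24%) are shared with *Thra* on the opposite strand, and 490 (29.9%) of those of *Dbp* are shared with *Sphk2*. The libraries are strand-specific, but how featureCounts was set for strand is not given in the sources used here. Reads of these partners may therefore be included, or reads in the shared bases may have been lost.

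*Dbp* (ENSMUSG00000059824, chr7:45705236-45710154, plus strand), the output factor, had 54.5 to 81.4 FPKM in cerebellum with a median of 75.9, 53.2 to 77.5 in brain with a median of 66.2, and 24.7 to 57.3 in colon with a median of 39.5. It was at 66.9, 39.4, 77.8, 39.2 and 29.9 FPKM in heart, at 62.8, 57.0 and 53.1 in ovary, and at 12.7, 10 and 16.7 in testis. Colon and heart varied more than 2-fold between libraries, and testis was again below all others.

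**Figure D1:**
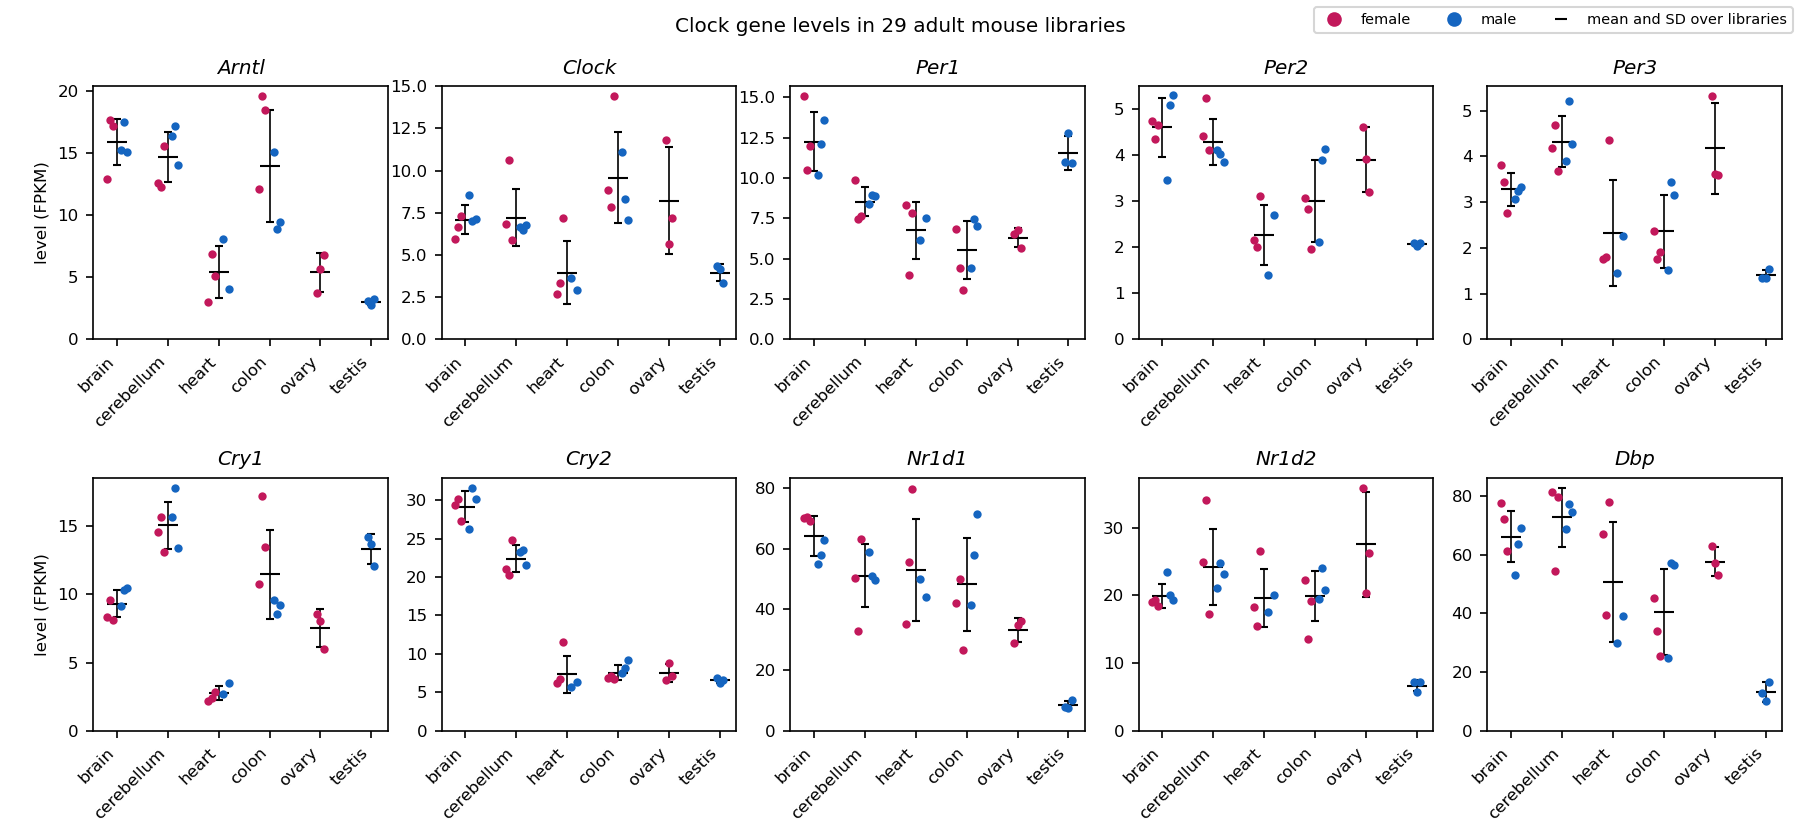
Level (FPKM, vertical axes from 0) of each of the 10 clock genes in the 29 libraries by tissue, with 1 point per library coloured by sex and black bars for the mean and SD over the libraries of a tissue. Testis is lowest for *Nr1d1*, *Nr1d2* and *Dbp* but level with brain for *Per1*, and *Cry1* in heart lies between 2.22 and 3.53 FPKM, below every other library.

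Tissues were next placed in order of mean level, in which neighbours are the closest pairs by construction. Of the 50 comparisons of neighbours (5 for each gene, exact permutation tests of log2(FPKM + 0.1), two-sided), 9 had P below 0.05 and 9 had ranges that did not overlap, and none passed after Benjamini-Hochberg adjustment over the 50. The lowest adjusted P of these exact permutation tests, 0.0541, belonged to *Cry2* between brain and cerebellum and between cerebellum and colon. Such exact permutation tests cannot go below 0.00216 with 6 libraries against 6, 0.0238 with 6 against 3, 0.0357 with 5 against 3 and 0.1 with 3 against 3. The design could thus hardly pass the adjusted threshold, and a pair that missed it is not shown to be alike. These comparisons were not made over all genes and loci, so the counts are no result about clock genes in particular. The order also depended on scaling. When FPKM was rescaled by TMM factors, the highest tissue was the same for 5 of the 10 genes. Testis then took the place of brain for *Per1* and of cerebellum for *Cry1*, and heart became highest for *Nr1d1*, *Nr1d2* and *Dbp*. *Arntl*, *Per2* and *Cry2* stayed highest in brain, *Per3* in cerebellum and *Clock* in colon. Several separations given above were lost with TMM factors. The highest heart library of *Arntl* (11.9 rescaled FPKM) then overlapped cerebellum and colon, the highest heart library of *Cry1* (5.06) was above the lowest of ovary (4.60), *Clock* in testis (up to 5.00) overlapped ovary (from 4.36), and *Per1* in testis (from 12.6) no longer lay above all of heart (up to 13.8). *Arntl* in ovary and testis stayed below brain, cerebellum and colon, and the separations of *Cry2* and the low testis levels of *Nr1d1*, *Nr1d2* and *Dbp* also held.

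The promoters of a few of these genes are shown because their windows hold elements through which the loop is known to act: E-boxes before an internal start of *Per1* and before *Cry1* and *Ciart*, D-boxes before *Per3*, and a receptor element in *Arntl*. Both windows of *Per1* belong to starts inside the locus measured here, 3668 and 4871 bases from its first base, and the first of them holds the E-box. No window of *Per1* at the start of the locus was searched. The sequences are from RefSeq on GRCm38.p6, whose windows run from 250 bases before to 50 bases after a transcription start, and 9 of the 10 genes have at least 1 window. *Per2* has none in the table used. Capitals mark every match on either strand to CACGTG (E-box), TAGGTCA (the core of the element bound by ROR and REV-ERB receptors), TTANGTAA (D-box) or TGACGTCA (the cAMP response element). The matches do not overlap one another. The first 4 sequences are the 250 bases before the start site, at chr11:69098699-69098948 (plus strand) for *Per1*, chr10:85185055-85185304 (minus strand) for *Cry1*, chr4:151044666-151044915 (minus strand) for *Per3* and chr3:95882229-95882478 (minus strand) for *Ciart*, a further repressor of the loop. *Ciart* is not one of the 10 and was picked from the pathway list below for its matches, after they were seen. The last is a 30-base stretch of *Arntl* at chr7:113207530-113207559 (plus strand), just inside the transcript.
Per1: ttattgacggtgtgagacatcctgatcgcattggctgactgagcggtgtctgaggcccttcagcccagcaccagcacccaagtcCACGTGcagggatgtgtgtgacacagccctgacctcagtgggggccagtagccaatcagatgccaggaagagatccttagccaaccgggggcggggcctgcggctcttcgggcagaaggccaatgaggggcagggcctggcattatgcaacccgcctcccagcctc
Cry1: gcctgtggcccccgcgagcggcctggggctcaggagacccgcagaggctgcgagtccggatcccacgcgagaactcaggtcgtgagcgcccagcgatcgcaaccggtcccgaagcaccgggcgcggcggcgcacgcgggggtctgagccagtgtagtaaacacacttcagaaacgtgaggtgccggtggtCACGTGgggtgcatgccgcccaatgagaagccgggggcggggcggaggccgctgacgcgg
Per3: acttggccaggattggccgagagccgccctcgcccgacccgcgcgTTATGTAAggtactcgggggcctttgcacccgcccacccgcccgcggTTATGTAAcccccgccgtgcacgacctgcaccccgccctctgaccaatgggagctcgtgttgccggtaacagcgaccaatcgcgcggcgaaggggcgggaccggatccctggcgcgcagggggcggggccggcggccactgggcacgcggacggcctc
Ciart: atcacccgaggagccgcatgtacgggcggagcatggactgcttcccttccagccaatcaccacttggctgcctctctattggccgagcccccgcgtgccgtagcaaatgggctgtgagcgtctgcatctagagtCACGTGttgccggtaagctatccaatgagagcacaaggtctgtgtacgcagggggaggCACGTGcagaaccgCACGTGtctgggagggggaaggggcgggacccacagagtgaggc
Arntl: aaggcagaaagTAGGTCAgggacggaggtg
The E-box of *Per1* begins 166 bases before its internal start and that of *Cry1* 60 bases before the start, and the 3 E-boxes of *Ciart* begin 116, 58 and 44 bases before it. Both D-boxes of *Per3* read TTATGTAA, 205 and 158 bases before the start. The receptor element of *Arntl* begins 31 bases into the transcript as counted from the second of its 2 starts. That start lies 54 bases inside the locus measured here. Over all 32851 windows, 7.15% hold CACGTG, 2.61% TAGGTCA, 2.32% TTANGTAA and 1.79% TGACGTCA. Among the 13 windows of the 9 genes, 2, 1, 1 and 0 hold them, and among the 20 windows of 15 pathway genes 4, 1, 2 and 1 do. A match describes letters in the window and is not evidence of binding.

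All 10 genes differed among the 6 tissues (edgeR quasi-likelihood test, highest adjusted P = 0.000603, for *Clock*), but so did 95.5% of all genes and loci tested, and a difference between tissues is therefore not particular to clock genes. Each tissue was next compared with the mean of the other 5. The median of all genes and loci was not 0 in these comparisons. It was -0.55 in heart, -0.38 in colon, -0.15 in ovary, -0.10 in brain and in cerebellum and 0.10 in testis, on the log2 scale, and scaling by DESeq2 size factors moved it by up to 0.149 (in colon). Values near those medians say little about a gene.

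In brain, 7 of the 10 genes were higher than the mean of the other tissues and none was lower, against a background of 32.9% of all genes and loci higher and 23.1% lower. The largest difference was that of *Cry2*, 1.72 ± 0.08 (log2 difference ± SE, adjusted P = 1.11e-16), followed by *Arntl* at 1.18 ± 0.15 and *Nr1d1* at 1.00 ± 0.13. *Dbp* was higher by 0.74, *Per1* by 0.73 and *Per2* by 0.66. *Nr1d2* (0.19) was called only with the library code digit, described below, as a term in edgeR (0.22, adjusted P = 0.0356). *Per3*, at 0.34 (adjusted P = 0.0279), lost the call with DESeq2 size factors (0.20, adjusted P = 0.208), without the low-count filter, under DESeq2, and without female brain replicate 1 or 2, male brain replicate 2 or 3 or testis replicate 2 (0.175, adjusted P = 0.303 without the last). In cerebellum 8 genes were higher and none lower, against 30.8% and 22% of all. *Cry2* led again at 1.10 ± 0.08, with *Arntl* at 0.87, *Cry1* at 0.80 ± 0.09 and *Dbp* at 0.75, while *Per1* at -0.06 (adjusted P = 0.877) and *Clock* at 0.10 were not called. The calls of *Per2* (0.25, adjusted P = 0.132) and *Nr1d2* (0.23, adjusted P = 0.1) were lost without testis replicate 2 and without female cerebellum replicate 3, that of *Per2* also without male cerebellum replicate 1, with DESeq2 size factors (0.27, adjusted P = 0.0796), under DESeq2 (adjusted P = 0.0595) and with the code digit term (adjusted P = 0.0543), and that of *Nr1d1* without female cerebellum replicate 1 (0.33, adjusted P = 0.0539).

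Heart had genes on both sides. *Nr1d1* (1.11 ± 0.14), *Nr1d2* (0.66 ± 0.12) and *Dbp* (0.64 ± 0.17) were higher, and *Cry1* (-1.43 ± 0.12, adjusted P = 1.56e-10), *Clock* (-0.38 ± 0.15) and *Cry2* (-0.26 ± 0.09) were lower, against 22.1% of all genes and loci higher and 29.6% lower. The differences of *Clock* and *Cry2* were smaller than the shift of the median gene in heart, so that only *Cry1* was low relative to it. Without female heart replicate 3, the count was again 6, with *Cry1* at -1.36 and *Dbp* at 0.68. *Clock* lost its call without any of 6 single libraries of heart and gonads (-0.30, adjusted P = 0.204 without male heart replicate 1) and *Cry2* without any of 3 (-0.16, adjusted P = 0.167 without testis replicate 2). Without the low-count filter both lost it (adjusted P = 0.057 and 0.0831), and *Clock* also did with DESeq2 size factors (-0.36, adjusted P = 0.0574). In colon, *Arntl* (0.74 ± 0.16), *Clock* (0.59 ± 0.13), *Nr1d1* (0.32 ± 0.14) and *Cry1* (0.28 ± 0.10) were higher and *Per1* (-0.82 ± 0.17), *Cry2* (-0.79 ± 0.09) and *Per3* (-0.42 ± 0.14) were lower, against 28.2% higher and 31.1% lower in all. With the code digit term in edgeR, *Dbp* was also called lower (-0.33, adjusted P = 0.0371, against -0.28 without it). The call of *Per3* was lost with DESeq2 size factors (-0.27, adjusted P = 0.0928), under DESeq2 (adjusted P = 0.069), without the filter (adjusted P = 0.0676), without male colon replicate 3 (adjusted P = 0.0518) and without the colon libraries coded 49 and 59 (-0.24, adjusted P = 0.131), that of *Cry1* without female colon replicate 3 (0.19, adjusted P = 0.113) and that of *Nr1d1* without any of 8 single libraries, male colon replicate 2 among them (0.21, adjusted P = 0.230).

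In ovary no gene was higher and 5 were lower, *Arntl* (-1.20 ± 0.24), *Cry2* (-1.15 ± 0.12), *Per1* (-0.95 ± 0.23), *Cry1* (-0.77 ± 0.14) and *Nr1d1* (-0.65 ± 0.19, and -0.50 with adjusted P = 0.0835 without ovary replicate 1), against 22.4% of all higher and 19.8% lower. With the code digit as a term in the fit, *Per3* (0.45, adjusted P = 0.0244, against 0.21 without it) and *Nr1d2* (0.36, adjusted P = 0.0331) were also called higher in ovary. All 10 genes were called in testis. The repressors *Cry1* (0.99 ± 0.12) and *Per1* (0.87 ± 0.19) were higher, and the other 8, the repressors *Cry2*, *Per2* and *Per3* among them, were lower, led by *Nr1d1* (-2.25 ± 0.22, adjusted P = 1.16e-09), *Dbp* (-1.81 ± 0.25), *Arntl* (-1.46 ± 0.25) and *Nr1d2* (-1.45 ± 0.17). Over all genes and loci, 40.4% were higher in testis and 26.7% lower, and the median of the 10 was -0.75 against 0.10 for all. The smaller decreases of *Clock* (-0.52) and *Per2* (-0.49) lost their calls under DESeq2 (adjusted P = 0.0619 and 0.0601), with DESeq2 size factors in edgeR (-0.39 and -0.36, adjusted P = 0.0797 and 0.0832) and without single testis libraries, and that of *Clock* also with the code digit term (-0.39, adjusted P = 0.0718).

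**Figure D2:**
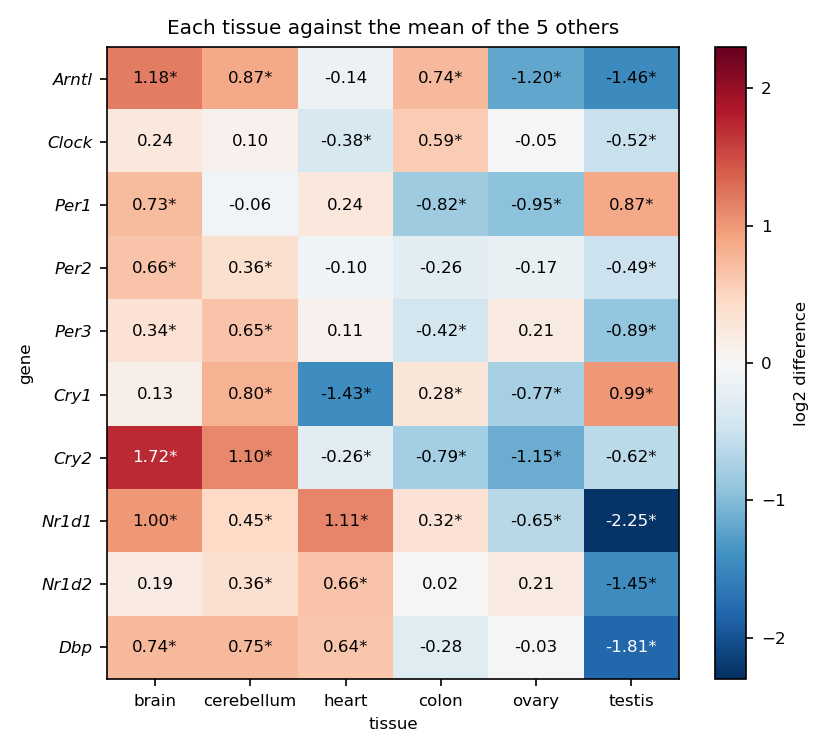
Log2 difference of each clock gene (rows) in each tissue against the mean of the 5 other tissues (columns), red for higher and blue for lower, with the value printed in each cell and an asterisk where the adjusted P of edgeR's quasi-likelihood test was under 0.05. The brain and cerebellum columns hold no called decrease, and the testis column is blue except for *Per1* (0.87) and *Cry1* (0.99).

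A list of 21 further genes of the clock pathway was measured in the same way. They comprise alternative partners and receptors, other repressors and output factors, and enzymes that modify or degrade clock proteins. In brain 13 were higher and 4 lower, in cerebellum 13 and 6, in heart 9 and 8, in colon 5 and 13, in ovary 2 and 14 and in testis 4 and 13. Over all genes and loci, as given above, the shares higher and lower were 32.9% and 23.1% in brain, 30.8% and 22% in cerebellum, 22.1% and 29.6% in heart, 28.2% and 31.1% in colon, 22.4% and 19.8% in ovary and 40.4% and 26.7% in testis. *Npas2*, which can stand in for CLOCK in the dimer, was 3.28 ± 0.15 higher in brain and 2.04 ± 0.16 higher in colon on the log2 scale, and 0.97 lower in heart (-0.97 ± 0.21). *Rorb*, an activating receptor of neural tissue, was 5.76 ± 0.14 higher in brain and 4.43 ± 0.14 higher in cerebellum. *Nampt*, the rate-limiting enzyme of NAD salvage, was at 2.63 ± 0.12 in heart. In testis the highest was *Usp2*, a ubiquitin-specific protease, at 3.71 ± 0.15, and *Hlf*, which belongs to the same family as *Dbp*, was at -2.43 ± 0.23. Against the same shares for brain, all 5 immediate early genes were higher there, and of 4 glucocorticoid-responsive genes (*Fkbp5*, *Tsc22d3*, *Sgk1*, *Zbtb16*), 1 was higher and 1 lower. Between sexes or code digits, 0 of either list were called by edgeR.

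Males and females were compared within each of the 4 shared tissues. None of the 10 genes was called in any of them by edgeR's quasi-likelihood test, against 0.0368% of all genes and loci in brain, 0.0301% in cerebellum, 0.0635% in heart and 0.324% in colon. At an unadjusted P under 0.05 in that fit, 0 of the 10 were found in brain and cerebellum, 1 in heart and 2 in colon, against 4.83%, 3.07%, 9.65% and 8.85% of all genes and loci. The FPKM ranges of the sexes did not overlap in 5 of the 40 comparisons, 1 each in brain, cerebellum and heart and 2 in colon. Over all genes and loci they did not overlap for 13.4% in brain, 6.76% in cerebellum, 13.6% in heart and 13.4% in colon, so that the count for the 10 genes is near the background. In colon, *Cry1* was at 8.59, 9.25 and 9.56 FPKM in males and at 10.8, 13.5 and 17.2 in females. All male libraries were below all female ones, and the log2 difference was -0.74 ± 0.17 with adjusted P = 0.0723. That value passed the threshold under DESeq2 (-0.78, adjusted P = 0.000906), with DESeq2 size factors in edgeR (adjusted P = 0.0439), without female colon replicate 2 (-0.87, adjusted P = 0.0463) and without female heart replicate 3 (adjusted P = 0.0294). It was farther from the threshold without the low-count filter (-0.69, adjusted P = 0.18), without female colon replicate 3 (-0.55, adjusted P = 0.219) and without male colon replicate 1 (-0.66, adjusted P = 0.368). *Arntl* in colon was at 8.94, 9.50 and 15.1 FPKM in males and 12.1, 18.5 and 19.6 in females, which overlapped (-0.72 ± 0.29, adjusted P = 0.438). The colon epithelial markers *Muc2*, *Slc26a3* and *Krt20* moved with sex as well. Their summed level was 848, 1060 and 1290 FPKM in the male colon libraries and 1320, 1490 and 1500 in the female ones, without overlap, although 0 of the 3 were called (log2 differences of -0.81, -0.25 and -0.80). Their part in the values of *Cry1* and *Arntl* in colon was not tested. *Dbp* in heart was at 39.2 and 29.9 FPKM in males and at 39.4, 66.9 and 77.8 in females, a difference of -0.66 ± 0.32 with adjusted P = 0.519. Whether the sex difference itself varied between the 4 tissues was tested with a sex by tissue term, and no clock gene passed (lowest adjusted P = 0.273, for *Cry1*), against 0.0167% of all. Of the 21 pathway genes, *Nampt* was lower in male colon (-1.08 ± 0.23, adjusted P = 0.0250).

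Each library carries a numeric code in its label, whose meaning is not stated. Within a sex the codes that share a first digit run across tissues (for example 51 for male brain, 52 for cerebellum, 53 for heart, 55 for testis and 59 for colon), and the replicate numbers do not follow them. The genes were compared between digits within each sex, with the tissue means in the fit. Female libraries with codes of a single digit (1, 5 and 8) formed a set of their own. In males, *Per3* deviated from its group mean by -0.15 in the brain, -0.18 in the cerebellum, -0.30 in the heart, -0.08 in the testis and -0.72 in the colon library of digit 5 (log2). Libraries of digit 6 ran from -0.06 to 0.35 and those of digit 7 from -0.04 to 0.37. All 5 libraries of digit 5 were below their means for *Per1*, *Per3* and *Dbp*, and 4 of 5 were for *Per2*. For *Nr1d1* and *Nr1d2* only 3 of 5 were below, and for *Clock* all 5 were above (0.01 to 0.38). In the fit, digit 6 minus 5 gave 0.45 ± 0.15 for *Per3*, 0.44 ± 0.17 for *Per2* and 0.33 ± 0.17 for *Dbp*, and digit 7 minus 5 gave 0.42 ± 0.16, 0.46 ± 0.18 and 0.55 ± 0.19. *Arntl* had the opposite sign, at -0.32 ± 0.19 and -0.27 ± 0.21.

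In females, *Arntl* was below its group mean in all 5 libraries of digit 1, at -0.33 in brain, -0.08 in cerebellum, -0.29 in heart, -0.36 in colon and -0.59 in ovary. It was above in all 6 libraries of digit 4, between 0.09 and 0.68. *Per3* was below its mean in all 6 libraries of digit 4 and above it in 4 of 5 of digit 1, and *Dbp* was above in all 5 of digit 1. The median deviation of *Nr1d1* had the sign of *Arntl*, at -0.04 in digit 1 (3 of 5 below 0) and 0.15 in digit 4 (4 above 0, 1 below). That of *Per2* was 0.15 in digit 1 and -0.03 in digit 4. The fitted difference of digit 4 minus digit 1 was 0.62 ± 0.18 for *Arntl*, -0.56 ± 0.16 for *Per1*, -0.44 ± 0.12 for *Nr1d2*, -0.41 ± 0.17 for *Dbp* and -0.34 ± 0.14 for *Per3*. The 3 libraries with codes of a single digit did not follow this pattern throughout. They include female heart replicate 3 (code 8), which stood apart from the other heart libraries, and its part in their values was not tested. Against digit 1 they gave 0.45 ± 0.23 for *Arntl*, -0.58 ± 0.21 for *Per1* and -0.27 ± 0.21 for *Dbp*, but -0.02 ± 0.18 for *Per3*, which was at 0.32 ± 0.18 against digit 4. The 1 library of digit 2, female cerebellum replicate 3, was below its group mean for both *Arntl* (-0.18) and *Dbp* (-0.43). The glucocorticoid-responsive genes had the same sign as *Per1* between these digits, at -0.69 ± 0.15 for *Tsc22d3*, -0.73 ± 0.23 for *Zbtb16*, -0.67 ± 0.26 for *Sgk1* and -0.47 ± 0.17 for *Fkbp5*, and digit 7 minus 5 in males gave 0.43 ± 0.17, 0.53 ± 0.26, 0.33 ± 0.28 and 0.19 ± 0.18 for the same genes. None of these passed after adjustment. In summed FPKM of the same genes, male digit 6 was below digit 5 in testis (34 against 39.4) and colon (120 against 134). It was above digit 5 in brain (62.5 against 52.5), cerebellum (83 against 67.3) and heart (59.3 against 41.5). The part of these genes in the values of the clock genes was not tested. Deviations within a group sum to 0, so that libraries of different digits are not independent of each other. In both sexes none of the 10 passed edgeR's quasi-likelihood test of the digits after adjustment over all genes and loci. The lowest adjusted P was 1 in males and 0.282 in females, and 0% and 0.0234% of all genes and loci passed. Unadjusted, 3 genes were below 0.05 in each sex, *Per2* (0.0233), *Per3* (0.0118) and *Dbp* (0.0262) in males and *Arntl* (0.00954), *Per1* (0.00371) and *Nr1d2* (0.00382) in females, against 1.55% of all genes and loci in males and 10.2% in females. DESeq2 called *Per1* (adjusted P = 0.0261) and *Nr1d2* (0.0138) in females, among 544 genes and loci, and none of the 10 in males, among 2.

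**Figure D3:**
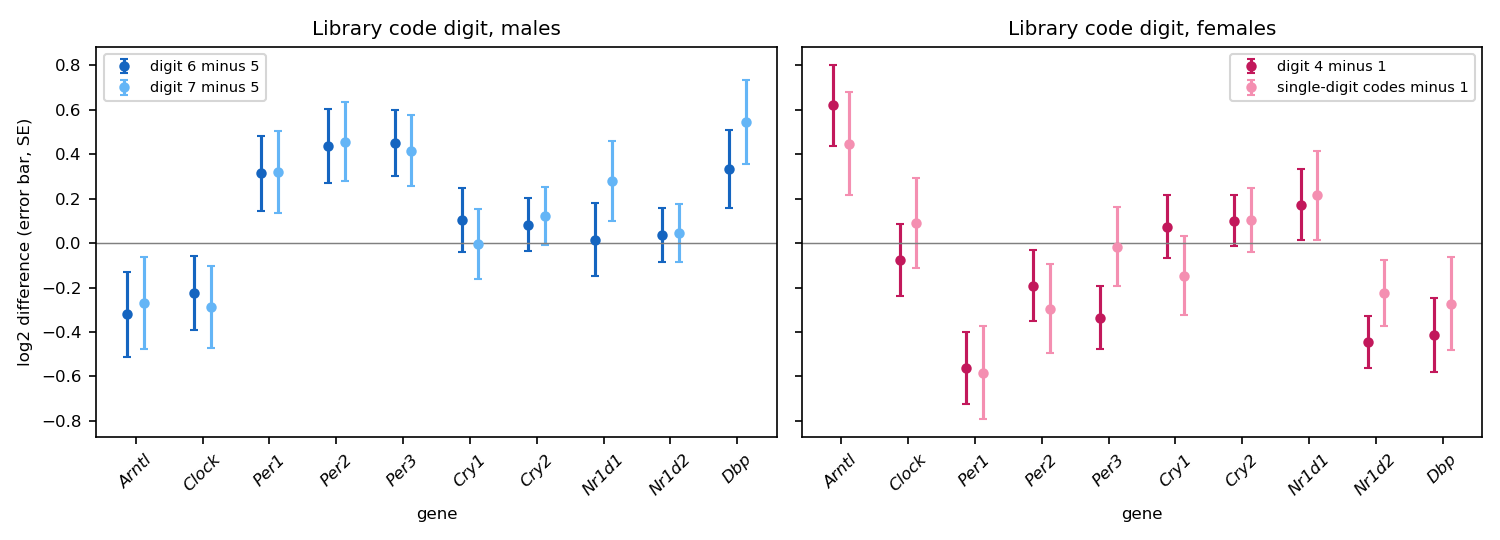
Fitted log2 difference between libraries whose code begins with different digits, for each of the 10 clock genes in males (left, digits 6 and 7 against 5) and females (right, digit 4 and codes of a single digit against 1), with error bars of 1 SE. The Per genes and *Dbp* lie above 0 in males and below it in females, with *Per3* close to 0 (-0.02) for the single-digit codes, and *Arntl* lies on the other side of 0 in both panels (-0.32 and -0.27 in males, 0.62 and 0.45 in females).

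The same question was put without the codes, by asking whether libraries with more *Arntl* than their group mean had less of the genes of the opposite phase. Deviations of TMM-scaled log2 CPM from the mean of the same tissue and sex were related across the 29 libraries, with P from 100000 shuffles within groups and adjustment over the 9 relations. *Per3* gave r = -0.741 and rho = -0.720 (permutation test, adjusted P = 0.0147 and 0.0211), with opposite signs in 21 of 29 libraries. *Nr1d2* gave r = -0.542 and rho = -0.550 (permutation test, adjusted P = 0.0466 and 0.0486), with opposite signs in 18. *Per2* (r = -0.530, rho = -0.461), *Per1* (r = -0.512, rho = -0.427) and *Dbp* (r = -0.440, rho = -0.339) were negative too and did not pass (permutation test, adjusted P for r of 0.127, 0.127 and 0.146). Their signs were opposite in 18, 22 and 18 libraries, so that sign counts do not set the called genes apart. *Clock*, *Cry1*, *Cry2* and *Nr1d1* had r between -0.101 and 0.263, with adjusted P of 0.345 or more in the permutation test. The most positive was *Nr1d1* (r = 0.263, rho = 0.385), with opposite signs in 10 libraries. Its sign was thus not the negative one asked about, unlike that of *Nr1d2*. These adjusted values cover the 9 relations alone, and the genes were chosen with earlier results known. Before adjustment 3 of the 9 (*Per1*, *Per3* and *Nr1d2*) were below 0.05, against 8.76% of the 12039 genes and loci with a mean of at least 5 CPM (10000 shuffles, added after the values were seen). Adjusted over all of these, neither the 9 genes (lowest adjusted P = 0.417 in the permutation test) nor any other passed. Counted from the most negative r of the 12039, *Per3* ranked 3, *Nr1d2* 83, *Per2* 98, *Per1* 129 and *Dbp* 352.

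**Figure D4:**
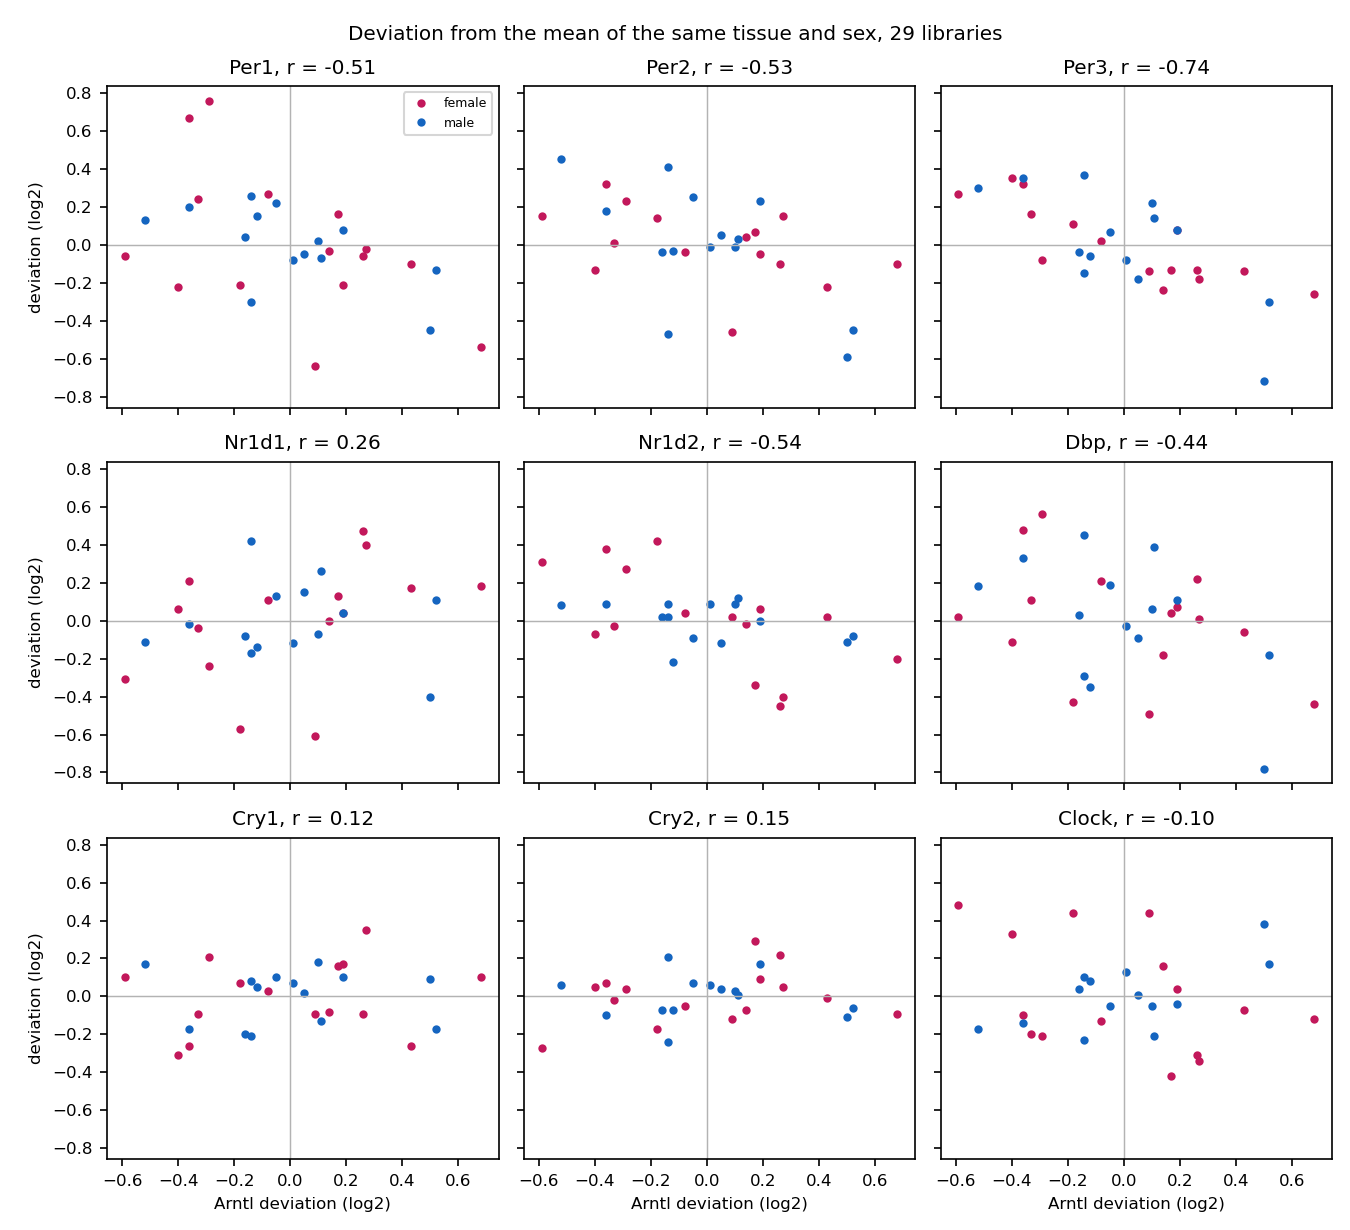
Deviation of 9 clock genes (vertical axes, log2) against that of *Arntl* (horizontal axes, log2) from the mean of the same tissue and sex, with 1 point per library (29) coloured by sex and Pearson's r above each panel. Points fall from upper left to lower right for *Per3* (r = -0.74) and lie scattered for *Clock* (r = -0.10) and *Cry1* (r = 0.12).

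The calls, more than the size of r for *Per3*, depended on which libraries were included. Over all omissions of a single library, r for *Per3* ran from -0.778 to -0.704. Without the pair farthest from the median in *Arntl* (female heart replicate 2 and ovary replicate 1), *Per3* was at r = -0.724 and *Nr1d2* at r = -0.406, and neither passed the permutation test (adjusted P = 0.121 and 0.150). Leaving out female colon replicate 2, ovary replicate 1 or male colon replicate 3 alone also ended the call of *Per3* (r between -0.725 and -0.720, adjusted P from 0.0513 to 0.0850 in the permutation test). In the 15 female libraries *Per3* was at r = -0.831 (permutation test, adjusted P = 0.0128), and in the 14 male libraries at r = -0.717 (adjusted P = 0.408). Without TMM scaling *Per1* passed instead (r = -0.726, permutation test, adjusted P = 0.0107), and *Per3* (r = -0.457) and *Nr1d2* (r = -0.440) did not. *Nr1d2* lost its call without any of 16 single libraries (adjusted P up to 0.131, without female colon replicate 2). The labels do not say whether libraries that share a code digit come from 1 animal, so that the independence of the 29 points is not known.

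In colon, the libraries coded 49 (female colon replicate 1) and 59 (male colon replicate 3) had 25.6 and 24.7 FPKM of *Dbp* against 33.9 to 57.3 in the other 4, 3.04 and 4.40 of *Per1* against 4.40 to 7.45, and 1.96 and 2.11 of *Per2* against 2.82 to 4.13. Both were the lowest of the 6 for *Dbp* and *Per2*. Their *Clock* levels of 14.4 and 11.1 FPKM were the highest of the 6. The same libraries had the lowest total counts of the 6 (11742417 and 13334331 against 14730776 to 18890658) and the lowest summed smooth muscle markers (2610 and 3000 FPKM against 3160 to 6330), and mitochondrially encoded genes took 6.24% of the counts in library 49 against 2.34 to 3.82% in the other 5. The part of these in the clock gene values was not tested. Both libraries were singled out after their values were seen, and without both of them *Nr1d1* was the 1 gene that passed (r = 0.603, permutation test, adjusted P = 0.0027) and neither *Per3* (r = -0.723, adjusted P = 0.0949) nor *Nr1d2* (r = -0.540, adjusted P = 0.106) passed. The r of *Nr1d1* was positive, against the direction asked about.

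The spread between replicates varied among the 10 genes. The SD of log2 CPM within groups, pooled over the 10 groups, was 0.385 for *Arntl*, 0.378 for *Dbp*, 0.367 for *Per1*, 0.317 for *Nr1d1*, 0.309 for *Per2*, 0.298 for *Per3*, 0.293 for *Clock*, 0.249 for *Nr1d2*, 0.201 for *Cry1* and 0.157 for *Cry2*. Among genes and loci with a mean of at least 5 CPM, whose median SD was 0.2625, *Arntl* stood at percentile 84, *Dbp* at 82.9 and *Per1* at 81, and *Cry1* and *Cry2* at 23.9 and 9.10. Of the 10 genes, 7 were above that median. In the pathway list, *Ciart* had the largest SD of the 21, 0.674 (percentile 98), and *Gsk3b*, a kinase that acts on clock proteins, the smallest, 0.0971, and both are named after their values were seen. The order of the 10 depended on scaling. Without TMM the largest SD was that of *Clock*, 0.393 (percentile 80.6, against 61.5 with TMM), followed by *Per3* at 0.381 (percentile 78.7), *Dbp* at 0.368 and *Arntl* at 0.366, and *Cry2* stood at percentile 23. In the pathway list *Ciart* then stayed largest (0.612). *Gsk3b* rose to 0.18 (percentile 16.7, against 0.407 with TMM) and was no longer the smallest.

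The genes and loci most like *Arntl* in their deviations over the 29 libraries, given as a description among 12039 others with a mean of at least 5 CPM, were *Sv2b* (r = 0.831), *Samd11* (r = 0.820), *Fam120a* (r = 0.819), *Pcsk1n* (r = 0.803) and *Tnr* (r = 0.777). The most unlike were *St8sia1* (r = -0.784), *Ccdc171* (r = -0.747), *Per3* (r = -0.741), *Zfp248* (r = -0.729) and *Tspan6* (r = -0.707). Within the pathway list, *Npas2* ranked 13 from the top (r = 0.748) and *Nfil3*, which represses D-box genes, ranked 37 (r = 0.695), while *Bhlhe41*, an E-box repressor, ranked 10 from the bottom (r = -0.655). All these values share the same libraries and the same TMM factors.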

How the data were processed

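The study measured RNA by strand-specific, rRNA-depleted sequencing. The authors aligned reads to mm10 and counted them; their processing notes name FastQC 0.11.8, MultiQC 0.9, HISAT2 2.0.5 and featureCounts 1.6.3. The deposited values are raw counts for each gene or Iso-seq locus in an annotation on GRCm38, and the long-read samples gave no counts here. All 29 count columns were used. FPKM was computed from these counts, the total count and the merged exon length. Genes were filtered with filterByExpr and fitted in edgeR 4.0.16 (R 4.3.3), with TMM scaling, 10 group means and a threshold of 0.05 on the Benjamini-Hochberg adjusted P. The scripts were tested on simulated data with 2-fold and 4-fold changes added. Males against females in brain recovered 28% and 60% of them, the male code digit 36% and 67%, and testis 40% and 71%. False calls were 2.22%, 0.962% and 2.63% of those called. A gene that was not called between sexes or digits is therefore not shown to be alike. DESeq2 1.42.0, DESeq2 size factors, no filter, the replicate block, a code term and leaving out each library were alternatives. Python 3.11.15, numpy 2.4.6, pandas 2.3.3, scipy 1.17.1 and matplotlib 3.10.9 were used for the rest.

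Genes named are the 10 members, up to 2 of 21 pathway genes with the largest change in each direction of a comparison, those of the list with the extremes of spread and the strongest likeness to *Arntl*, chosen after their values were seen, the genes of the marker, immediate early and glucocorticoid-responsive lists, and the 5 most and 5 least like *Arntl* in deviations of log2 CPM (prior count 2). The values of 1 pathway gene are not reported here. The members and lists were chosen with earlier results of these data known. Counts of 28 pairs of libraries within groups differed by more than sampling noise (chi-square per gene of 11.1 to 323). Total counts limit precision through counting error only where counts are low, and the 10 genes had at least 134 in every library.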

Additional observations from a re-analysis of the deposited data

How the results depend on the processing

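No called value changed direction. Of the values that were not called, 35 changed sign in at least 1 alternative (70 times, 53 of them when a library was left out), and none was called there (lowest adjusted P = 0.302). With DESeq2 size factors and DESeq2, *Cry1* in brain was at -0.006 and -0.005. Without the filter *Clock* and *Dbp* in ovary were at 0.021 and 0.044, and with the code digit term *Per2* and *Dbp* in ovary were at 0.12 and 0.278. The r of *Clock* was 0.11 without TMM scaling, 0.625 in males and 0.239 without the farthest pair, and in males r was -0.0445 for *Cry2* and -0.065 for *Nr1d1*. Leaving out single libraries gave -0.019 to 0.18 for *Cry1* in brain, -0.022 to 0.177 for *Clock* in cerebellum, -0.446 to 0.07 for *Arntl*, -0.369 to 0.088 for *Per2* and -0.067 to 0.235 for *Per3* in heart, -0.083 to 0.112 for *Nr1d2* in colon, and -0.323 to 0.142 for *Clock* and -0.056 to 0.018 for *Dbp* in ovary. It gave -0.001 to 0.17 for *Cry2* between sexes in colon, and r of -0.268 to 0.125 for *Clock*, -0.000752 to 0.277 for *Cry1* and -0.0733 to 0.273 for *Cry2*. Between males and females in colon the count of called members went from 0 to 1 with DESeq2 size factors and with DESeq2, and ranged from 0 to 1 when single libraries were left out. For the code digits in females, DESeq2 called 2. The number of members related to *Arntl* (2) became 1 without TMM scaling, 0 in males, 1 in females, 0 without the farthest pair and 1 without the colon libraries coded 49 and 59, a setting chosen after the data were seen, as was leaving out single libraries, which gave 0 to 2. Leaving out single libraries gave 6 to 8 called members in brain and in cerebellum, 4 to 6 in heart, 5 to 7 in colon, 4 to 5 in ovary, 8 to 10 in testis and 10 among tissues. In the other settings of the tissue comparisons 18 calls of single genes were lost, 1 of them without the colon libraries coded 49 and 59, and 4 were gained: with the code digit term, *Nr1d2* in brain (0.223) and ovary (0.362), *Per3* in ovary (0.451) and *Dbp* in colon (-0.33). With the replicate block the counts were 7 in brain, 8 in cerebellum, 6 in heart, 7 in colon, 5 in ovary and 10 in testis, and no member's call changed. The numbers do not pair the samples (median r of deviations -0.004 over 126 pairs of the same number and -0.003 over 252 others). Over all genes and loci, edgeR and DESeq2 called 11 and 52 between sexes in brain, 9 and 24 in cerebellum, 19 and 284 in heart, 97 and 405 in colon, and 0 and 2 (males) and 7 and 544 (females) between code digits. Without the filter 30 were called in heart and 27 and 582 between digits. The causes were not tested.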
